A study of Mus musculus with 4 samples.

Results

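The immunoglobulin genes were followed in RNA sequencing of group 2 innate lymphoid cells (ILC2s), tissue lymphocytes without rearranged antigen receptors that release type 2 cytokines. Members were the genes of the deposited count table whose mouse symbol begins with Ighv, Igkv or Iglv, together with Igkc, Igha, Ighm, Ighd, Iglc1, Iglc2, Iglc3, Jchain and Mzb1. By name 235 of 27179 genes in the table matched, and 78 of them had at least 1 count over the 4 libraries. These 78 were 34 heavy chain V genes (of 120 in the table), 33 kappa V genes (of 103), 2 lambda V genes (of 3) and all 9 constant region and partner genes. The sorted cells came from colons of C57BL/6J animals, 2 fed a control diet and 2 a high-fiber diet, with a single mouse behind each library. The labels state no sort gates, cell numbers, age, type of fiber or time on the diet.

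An antibody is built from a heavy chain and a kappa or lambda light chain. In each developing B cell a V segment is joined to a J segment (with a D segment between them in the heavy chain), so a single B or plasma cell and its descendants express a particular V gene in each chain. The constant region sets the isotype: Ighm encodes IgM, Ighd IgD and Igha IgA, the main antibody secreted into the gut. Jchain encodes the joining chain that links IgA into dimers, and Mzb1 a chaperone of antibody assembly in the endoplasmic reticulum. Germline transcripts of unrearranged heavy chain loci also occur in lymphocytes that are not B cells.

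The ILC2 label was checked first. All 13 ILC2 markers of the list used had counts in every library, among them the cytokine gene Il5 (2558 to 5885 CPM, counts divided by the TMM-scaled library size and given per 1e+06) and the surface receptor gene Klrg1 (1197 to 1579 CPM). Library totals lay between 20253987 and 30406730 counts, and library 1 was the deeper one on each diet. High-fiber library 2 stood apart from the other 3 on the first principal component of log2 CPM, which held 45.8% of the variance.

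The most counted V gene differed from library to library. The coding ends of the V genes that led a library or came next in it with over 500 counts are shown here because the results below turn on which of them was counted in which mouse. They are the last 150 coding bases, 5′ to 3′, from the GENCODE M21 annotation of GRCm38, the assembly of mm10. Capitals mark the last in-frame cysteine codon (TGT or TGC), the conserved cysteine at which the third complementarity-determining region starts.
Igkv10-94, led in control library 1, chr6:68704508-68704657, minus strand: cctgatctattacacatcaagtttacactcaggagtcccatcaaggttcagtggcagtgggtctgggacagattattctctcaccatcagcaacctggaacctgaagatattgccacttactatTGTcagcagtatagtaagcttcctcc
Igkv1-117, led in control library 2, chr6:68121678-68121827, plus strand: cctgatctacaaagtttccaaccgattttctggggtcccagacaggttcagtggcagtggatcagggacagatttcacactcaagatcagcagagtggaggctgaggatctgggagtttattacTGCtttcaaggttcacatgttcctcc
Igkv8-30, led in high-fiber library 1, chr6:70117061-70117210, minus strand: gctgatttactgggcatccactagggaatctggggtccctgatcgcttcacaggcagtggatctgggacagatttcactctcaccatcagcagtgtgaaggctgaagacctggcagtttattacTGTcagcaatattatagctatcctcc
Igkv3-10, next in high-fiber library 1, chr6:70573081-70573230, plus strand: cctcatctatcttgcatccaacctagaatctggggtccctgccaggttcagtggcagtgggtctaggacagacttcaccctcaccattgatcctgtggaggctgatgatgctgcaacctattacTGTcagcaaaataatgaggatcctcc
Igkv14-111, led in high-fiber library 2, chr6:68256720-68256869, plus strand: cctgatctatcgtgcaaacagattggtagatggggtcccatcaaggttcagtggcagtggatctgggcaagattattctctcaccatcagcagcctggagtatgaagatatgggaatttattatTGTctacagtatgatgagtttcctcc
Ighv1-53, led in control library 1, chr12:115158403-115158552, minus strand: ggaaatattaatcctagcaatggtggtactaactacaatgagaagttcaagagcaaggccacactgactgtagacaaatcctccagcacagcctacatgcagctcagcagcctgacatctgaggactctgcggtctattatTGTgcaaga
Ighv1-23, led in control library 2, chr12:114764450-114764599, minus strand: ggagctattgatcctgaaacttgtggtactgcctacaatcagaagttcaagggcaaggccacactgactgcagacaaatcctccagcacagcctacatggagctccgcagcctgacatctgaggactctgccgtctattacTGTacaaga
Ighv2-6, led in high-fiber library 1, chr12:113716670-113716819, minus strand: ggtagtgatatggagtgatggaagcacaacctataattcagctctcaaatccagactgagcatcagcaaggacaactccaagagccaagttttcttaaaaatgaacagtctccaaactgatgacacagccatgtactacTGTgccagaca
Ighv1-50, led in high-fiber library 2, chr12:115119748-115119897, minus strand: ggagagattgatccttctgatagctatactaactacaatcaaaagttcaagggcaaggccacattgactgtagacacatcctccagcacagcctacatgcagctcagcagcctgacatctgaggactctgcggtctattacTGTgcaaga

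Over their whole coding sequence the 4 leading kappa genes shared 63.9% to 76.3% of aligned bases. Among the leading heavy chain genes, Ighv1-53 and Ighv1-50 were the closest pair at 92.0% identity, and Ighv2-6 and Ighv1-50 the farthest at 56.6%. Closer relatives exist for most of them, and how the submitters counted reads shared between copies is not given in the sources used here. Igkv14-111 was 82.2% identical to its nearest relative, Igkv14-100, which had 0 counts in all 4 libraries. The nearest relatives of Ighv1-23 (Ighv1-15, 98.0%) and Ighv2-6 (Ighv2-3, 93.4%) also had 0 counts in every library. Ighv1-53 had 2 equally near relatives at 95.4%. Of these, Ighv1-55 had 0 counts in every library, and Ighv1-64 had 149 counts in high-fiber library 1 and 1 in high-fiber library 2. Ighv1-53 itself had 0 counts in those 2 libraries. Igkv3-10 was 96.7% identical to Igkv3-5, which held 70 counts in high-fiber library 1 alone, so the split between that pair is uncertain.

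The constant regions of IgA and of the kappa chain, and the joining chain, were lowest in control library 2 and highest in high-fiber library 2. Igkc (NCBI gene 16071, GRCm38 chromosome 6 from 70726435 to 70726754) was counted 1129 times in control library 1, 87 times in control library 2, 3228 times in high-fiber library 1 and 9323 times in high-fiber library 2. Igha (gene 238447, chromosome 12 from 113256204 to 113260236) held 1824, 69, 2928 and 8641 counts in the same order. Jchain (gene 16069, chromosome 5 from 88519809 to 88527897) held 1008, 85, 2540 and 5824 counts. On the CPM scale the highest library exceeded the lowest 110-fold for Igkc, 129-fold for Igha and 70.6-fold for Jchain. The diets did not overlap for these 3 genes, but the mice of a diet differed widely. The lower high-fiber library was 2.99-fold above the higher control library for Igkc, 1.68-fold for Igha and 2.64-fold for Jchain. In bulk RNA, fewer cells of a type and less RNA per cell cannot be told apart.

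**Figure D1:**
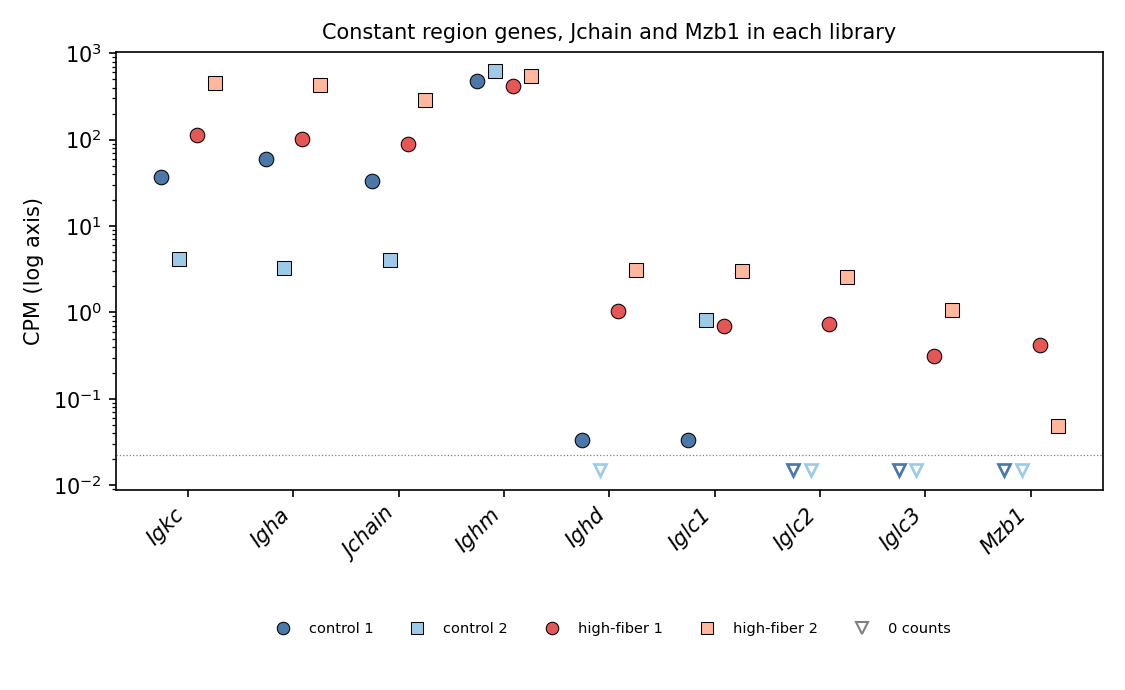
Level of each constant region gene, Jchain and Mzb1 in CPM on a log axis, with 1 point per library and open triangles for 0 counts. Igkc, Igha and Jchain put the 4 libraries in the same order, from 4.14 to 457 CPM for Igkc, whereas Ighm stays between 418 and 615 CPM.

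Ighm (gene 16019, chromosome 12 from 113418826 to 113422730) behaved differently from Igkc, Igha and Jchain. Control libraries 1 and 2 had 14545 and 12916 Ighm counts, high-fiber libraries 1 and 2 had 12067 and 11160, or 548 ± 94.6 CPM against 482 ± 91.6 CPM (SD, n = 2 per diet). The highest library was 1.47-fold above the lowest, and the diets overlapped. The edgeR log2 fold change, high-fiber over control, was -0.18 ± 0.24 (SE), at adjusted p = 0.902. Its sign turned when control library 2 or high-fiber library 1 was left out (0.00091 and 0.025). The ratio of Ighm to Igkc counts was 12.9 in control library 1, 148 in control library 2, 3.74 in high-fiber library 1 and 1.20 in high-fiber library 2.

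Per kilobase of exon annotated in GENCODE M21, Ighm stood above Igkc in 3 of 4 libraries. The Ighm levels were 255 and 326 CPM per kilobase on the control diet and 221 and 290 on the high-fiber diet. Igkc was at 70.2 and 7.79, and at 210 and 859 CPM per kilobase. Igha reached 22.6 and 1.23 on the control and 38.0 and 159 CPM per kilobase on the high-fiber diet, below Ighm in each library. At these lengths, only in high-fiber library 2 did the kappa constant region exceed the mu constant region. The Igkc length used was 532 bases, longer than the span of its gene given above. A shorter length would raise Igkc, so its order against Ighm in high-fiber library 1 (210 and 221 CPM per kilobase) depends on it.

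As a share of Igha, Ighm and Ighd counts, Igha made up 11.1% (exact 95% binomial interval 10.7 to 11.6%) in control library 1 and 0.531% (0.414 to 0.672%) in control library 2. In high-fiber libraries 1 and 2 it made up 19.5% (18.9 to 20.1%) and 43.5% (42.8 to 44.2%). Reads copied by PCR count a molecule repeatedly, so these intervals describe counting error alone. The means of 5.84% and 31.5% gave an exact two-sided permutation p of 0.333, the smallest that 2 against 2 libraries allow. The difference of 25.7 percentage points was 13.7 without high-fiber library 2 (exact permutation p = 0.667). Divided by exon length, the Igha share was 8.14%, 0.376%, 14.6% and 35.2% in the same order of libraries. Ighm was thus the main heavy chain constant gene in every library, by counts and per length.

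Ighd, the delta constant region of naive B cells, was near 0 on the control diet, with 1 and 0 counts, and had 30 and 64 counts on the high-fiber diet. The pooled ratio was 97.7, with a 95% counting interval of 17.1 to 3900 that leaves out the spread between mice. It made up at most 0.322% of the 3 heavy chain constant genes. Among isotypes outside the named members, Ighg2b (IgG2b) had 235 counts in high-fiber library 1 and 0 in the other 3 libraries. IgG and IgE genes together were 1.55% of heavy chain constant counts in high-fiber library 1, against 0.0183%, 0% and 0.0201% in control libraries 1 and 2 and high-fiber library 2. The 0 of 12985 counts in control library 2 allows up to 0.0284% by the exact interval.

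Light chains were mostly kappa. Igkc made up 99.9% of Igkc and lambda constant counts in control library 1, 83.7% (87 of 104 counts, interval 75.1 to 90.2%) in control library 2, and 98.5% and 98.6% in high-fiber libraries 1 and 2. The diets overlapped (exact permutation p of 1.0), and without control library 2 the difference changed sign, to -1.39 percentage points. Iglc1, a lambda constant region, had 1, 17, 20 and 62 counts. Iglc2 had 0, 0, 21 and 52 counts and Iglc3 0, 0, 9 and 22. Against a floor of 3 counts over the control group, Iglc2 was at least 25.3-fold and Iglc3 at least 10.7-fold higher on the high-fiber diet. These bounds pool the mice of a diet and leave out the spread between mice. The edgeR log2 fold change of Iglc2 was 8.23 ± 2.88 (SE), at adjusted p = 0.499, and Iglc3 was not tested by edgeR. These constant genes are close copies, so reads may be split between them. Iglv1, a lambda V gene, had 2, 9, 54 and 46 counts, Iglv3 had 11 counts in high-fiber library 1 alone, and Iglv2 had none.

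The quasi-likelihood test of edgeR was run on 11841 genes and adjusted over all of them (Benjamini-Hochberg), and 0 members passed an adjusted p of 0.05, against 0.0338% of all genes. Only 14 of the 78 members passed the filter on low counts, several of them through the counts of a single diet, so shares of these 14 are not support for a direction. Without adjustment, p under 0.05 was reached by 8 higher (4.7% of all genes) and 1 lower member (4.1%). The 8 were Igkc, Jchain, Igha, Ighd, Iglc2, Iglv1, Igkv14-111 and Igkv8-30, and the lower gene was Igkv4-80. Among the 14 tested members, diets did not overlap upward for these same 8 (18.5% of all genes) and downward for Igkv4-80 and Ighv1-23 (19.6%).

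The log2 fold changes were 3.68 ± 0.93 (SE) for Igkc, 2.96 ± 1.03 for Igha and 3.21 ± 0.84 for Jchain, with adjusted p of 0.447, 0.478 and 0.447. High-fiber library 2 weighed on each: without it they were 2.33, 1.58 and 2.13. Without control library 1 they were 6.10, 6.31 and 5.52, and still did not pass edgeR's adjusted threshold. When high-fiber library 1 was left out, Igkv14-111 passed edgeR as the only member called (log2 fold change 12.47, adjusted p = 0.0327).

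DESeq2 called 3 members higher (1.23% of all genes it tested) and 0 lower (0.613%): Igkv14-111 (adjusted p = 3.55e-04), Ighv2-6 (7.76e-14) and Igkv3-10 (2.30e-04). Ighv2-6 had 505 counts and Igkv3-10 had 739 counts in high-fiber library 1, and neither had a count in any other library. Those calls therefore rest on 1 mouse each. The Igkv14-111 call also hung on single libraries: its DESeq2 adjusted p was 0.0506 without control library 1, 0.0827 without control library 2 and 0.604 without high-fiber library 2, and it passed without high-fiber library 1 (2.53e-53). For Igkc, Igha and Jchain the DESeq2 adjusted p was 0.228, 0.636 and 0.302. These DESeq2 calls hung on single libraries: without control library 1 all 3 genes passed (3.20e-17, 9.11e-18 and 6.93e-15), and without control library 2 Igkc (0.00153) and Jchain (0.00959) passed while Igha did not (0.0827).

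Kappa V genes differed sharply between mice. In high-fiber library 2, Igkv14-111 (gene 545847) held 9451 of 9590 kappa V counts, or 98.6% (exact 95% interval 98.3 to 98.8%). The same gene had 3 and 1 counts in control libraries 1 and 2 and 79 in high-fiber library 1, where it was 3.18% of kappa V counts. Its log2 fold change was 11.44 ± 3.52 (SE, edgeR adjusted p = 0.456), or 5.04 with high-fiber library 2 left out. It was the only kappa V gene with a count in all 4 libraries.

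In high-fiber library 1 the leading pair was Igkv8-30, with 1388 counts (55.9%), and Igkv3-10, with 739 (29.8%). Igkv8-30 had 14 counts in high-fiber library 2 and none in the control libraries. Control library 1 was led by Igkv10-94, with 293 of 473 kappa V counts (61.9%, interval 57.4 to 66.3%) and none elsewhere. Control library 2 had only 45 kappa V counts, of which Igkv1-117 held 16 and Igkv4-80 and Igkv12-44 held 10 each. The leading gene was thus a different one in each mouse.

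**Figure D2:**
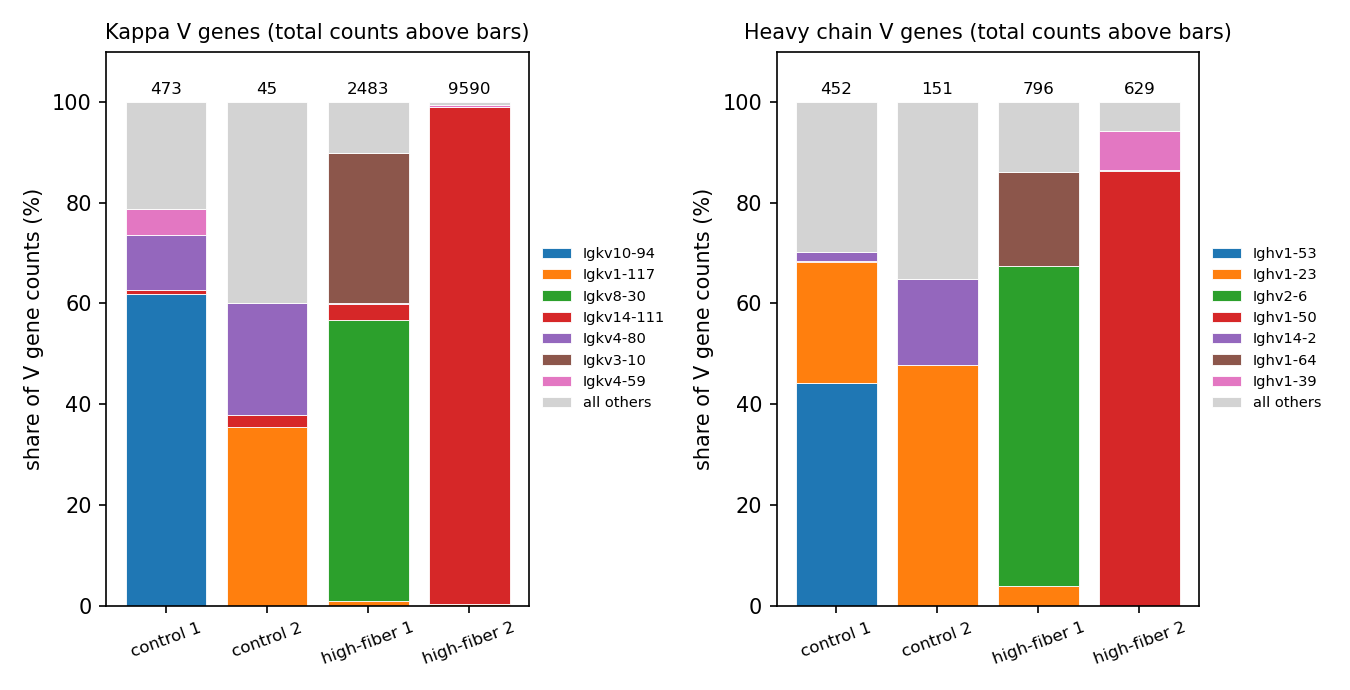
Share of kappa V gene counts (left) and heavy chain V gene counts (right) held by the 2 most counted genes of each library, with all other V genes in grey and total counts above the bars. The most counted V gene differs from library to library, but Ighv1-23, first in control library 2, comes next in control library 1. Igkv14-111 holds 98.6% of kappa V counts in high-fiber library 2.

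Heavy chain V genes also differed between mice. Ighv1-53 held 200 of 452 counts (44.2%) in control library 1 and none in the other libraries. Ighv2-6 held 505 of 796 (63.4%) in high-fiber library 1, followed by Ighv1-64 with 149. Ighv1-50 held 543 of 629 (86.3%, interval 83.4 to 88.9%) in high-fiber library 2 and 1 count elsewhere, in control library 1. Ighv1-23 was the exception: it had 108, 72, 31 and 0 counts, was first in control library 2 (47.7%) and next in control library 1 (23.9%). On the CPM scale it was 3.50 ± 0.10 on the control and 0.54 ± 0.76 with high fiber (SD, n = 2 per diet), with an edgeR log2 fold change of -2.48 ± 1.12 and an adjusted p of 0.599.

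Few V genes reached 10 counts in more than 1 mouse. Of 20 kappa V genes with at least 10 counts in some library, 15 reached that in 1 library, 4 in 2 libraries, and 1 (Igkv1-117) in 3. Of 14 such heavy chain V genes, 13 reached it in 1 library and 1 (Ighv1-23) in 3. This cut depends on depth: control library 2, with 45 kappa V counts, had 3 kappa V genes that reached it. With any count, 18 of 33 kappa V genes and 28 of 34 heavy chain V genes were counted in 1 library only. The high-fiber libraries shared 7 kappa V genes, and control library 2 shared 6 with high-fiber library 1. Shared kappa V use, the sum over genes of the smaller share in a pair of libraries, was 12.3% for the control pair and 4.01% for the high-fiber pair. Between diets it ran from 1.08% to 4.72% over 4 pairs. For heavy chain V genes it was 25.7% in the control pair, mostly Ighv1-23, 0.159% in the high-fiber pair and 0% to 4.77% between diets. Libraries of the same high-fiber diet shared no more V use than some pairs of libraries across diets.

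Evenness was lowest in the library with the most immunoglobulin counts. The effective number of kappa V genes (inverse Simpson index) was 2.45 and 4.25 on the control diet and 2.48 and 1.03 on the high-fiber diet. The diets overlapped, and the exact permutation test of the difference in means (-1.59) gave p = 0.667. That difference was -2.49 without control library 1, -0.69 without control library 2 and -0.87 without high-fiber library 2. By the exponential of the Shannon entropy, another measure of evenness, the diets did not overlap, at 4.07 and 5.21 against 3.68 and 1.11 (exact permutation p = 0.333, the smallest possible). At an equal 45 kappa V counts the expected number of genes was 7.42 and 8.0 on the control diet and 6.57 and 1.61 on the high-fiber diet. For heavy chain V genes at an equal 151 counts it lay between 7.23 and 8.19 in all 4 libraries. The effective number of heavy chain V genes was nevertheless lowest there too, at 1.33 against 3.51, 3.43 and 2.25.

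By V family, the Igkv14 family held 98.6% of kappa V counts in high-fiber library 2, and the Igkv8 and Igkv3 families 56.1% and 32.6% in high-fiber library 1. Igkv10 genes held 61.9% in control library 1. The Ighv1 family, the largest in the table with 60 genes, held 68.4% and 68.9% of heavy chain V counts on the control diet and 98.6% in high-fiber library 2. In high-fiber library 1 it held 30.3%, because Ighv2 held 63.4%.

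J segments also differed from mouse to mouse. The leading ones are shown because a J segment is transcribed with the V gene joined to it, although counts per gene do not show which V and J were joined. Capitals mark the codons of the conserved tryptophan (heavy) or phenylalanine (kappa), glycine, any residue, glycine motif, found by the codons of those residues. The segments are read 5′ to 3′ from the same annotation.
Ighj4, led in control library 1, chr12:113428514-113428567, minus strand: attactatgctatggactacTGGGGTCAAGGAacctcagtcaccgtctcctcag
Ighj3, led in high-fiber library 1, chr12:113429085-113429132, minus strand: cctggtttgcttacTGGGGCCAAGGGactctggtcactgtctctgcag
Ighj1, led in high-fiber library 2, chr12:113429781-113429833, minus strand: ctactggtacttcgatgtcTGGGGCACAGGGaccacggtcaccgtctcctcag
Igkj5, led in control library 1 and high-fiber library 2, chr6:70723886-70723923, plus strand: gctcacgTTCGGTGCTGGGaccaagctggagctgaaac
Igkj1, led in high-fiber library 1, chr6:70722562-70722599, plus strand: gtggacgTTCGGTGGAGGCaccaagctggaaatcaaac

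In high-fiber library 2 Igkj5 held 333 of 333 kappa J counts, with an interval of 98.9 to 100%, beside Igkv14-111. Ighj1 held 271 of 273 heavy chain J counts there (99.3%), beside Ighv1-50. Control library 1 had Ighj4 at 61 of 61 counts and Igkj5 at 59 of 70 (84.3%). The J segments of high-fiber library 1 were mixed. Igkj1 held 120 and Igkj2 60 of its 182 kappa J counts. Ighj3 held 49, Ighj2 11 and Ighj4 8 of its 69 heavy chain J counts. Control library 2 had 6 counts over kappa J and 6 over heavy chain J segments, too few to rank. The 10 D segments in the table had 0 counts in all 4 libraries.

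Ratios within a library described how the chains were counted together, and are compared across libraries only, since the genes differ in length. Jchain to Igkc was 0.893 and 0.977 on the control diet and 0.787 and 0.625 on the high-fiber diet. Its highest value was 1.56-fold its lowest, although Igkc itself ranged 110-fold. The Igha to Igkc ratio was 1.62, 0.793, 0.907 and 0.927. Summed kappa V counts per Igkc count were 0.419 and 0.517 on the control and 0.769 and 1.03 on the high-fiber diet. These diets did not overlap, with an exact permutation p of 0.333, the smallest possible.

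Heavy chain V counts did not follow Igha. Their ratio to Igha was 0.248 and 2.19 in control libraries 1 and 2 and 0.272 and 0.0728 in high-fiber libraries 1 and 2, a 30.1-fold range. High-fiber library 2 had the most Igha, 8641 counts, and 629 heavy chain V counts, fewer than the 796 of high-fiber library 1 with 2928 Igha counts. In control library 2, 151 heavy chain V counts stood beside 69 Igha and 12916 Ighm counts. Relative to Igha plus Ighm the ratio was 0.0276, 0.0116, 0.0531 and 0.0318. The difference of 0.0228 in the means was 0.0121 without high-fiber library 1 and 0.0148 without control library 2. With Igha alone as denominator the difference between diets turned sign, to -1.05. These ratios cover only reads assigned to the 120 heavy chain V genes in the table, and how reads shared between copies were counted is not given.

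**Figure D3:**
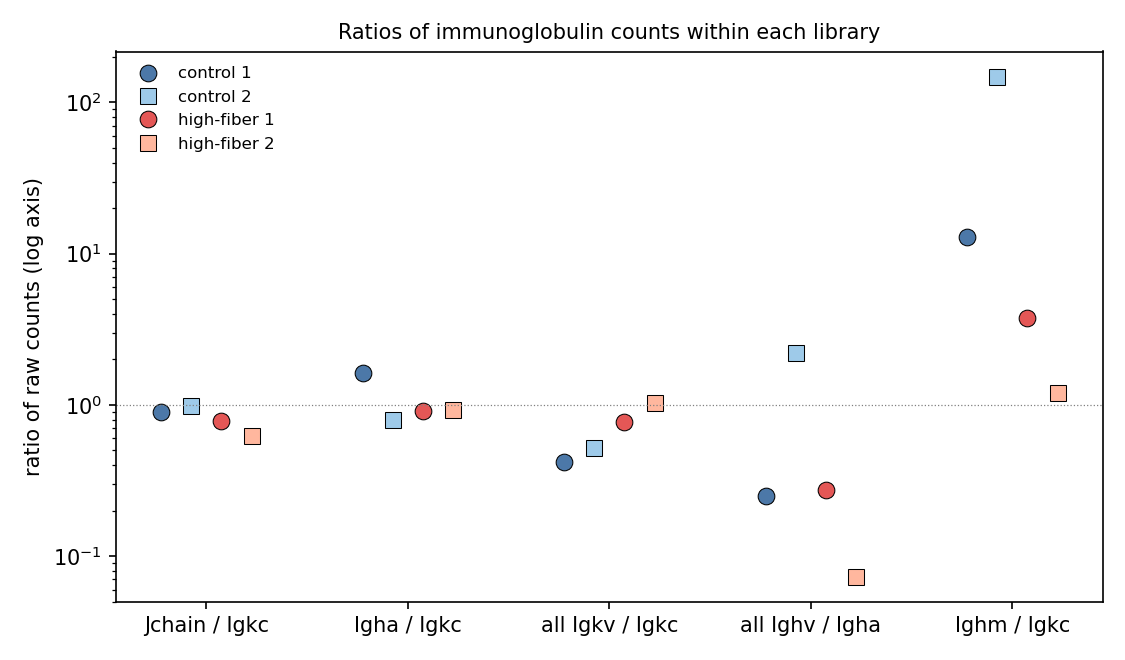
Ratios of raw counts within each library on a log axis, with 1 point per library. Jchain to Igkc stays between 0.625 and 0.977, while Ighm to Igkc runs from 1.20 in high-fiber library 2 to 148 in control library 2.

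All members together took 639 and 661 of each 1e+06 library counts on the control diet, and 827 and 2189 on the high-fiber diet (exact permutation p = 0.333, the smallest possible). The difference in means, 858 per 1e+06, was 177 without high-fiber library 2 and 1539 without high-fiber library 1. Without Ighm and Ighd the same sum was 161 and 22.9, and 414 and 1648 per 1e+06. In control library 2 Ighm and Ighd thus made up nearly the whole sum.

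Genes that define plasma cells, the antibody-secreting cells, did not rank the libraries as Igkc, Igha and Jchain did. Mzb1 had 0 counts in both control libraries, 12 in high-fiber library 1 and 1 in high-fiber library 2. Each 0 allows up to 3 counts, or 0.0993 and 0.143 CPM in control libraries 1 and 2. Sdc1, which encodes the plasma cell surface protein CD138, was counted 47 times in high-fiber library 1, 3 times in control library 1 and not in the other 2. Derl3, a factor of protein export from the endoplasmic reticulum, had 42 counts in high-fiber library 1 and none elsewhere. Tnfrsf17, the plasma cell survival receptor BCMA, had 0 counts in all 4 libraries. High-fiber library 2, highest for Igkc, Igha and Jchain, had 1 Mzb1 count and 0 counts of Sdc1, Derl3, Fkbp11, Tnfrsf17 and Pou2af1. Pou2af1 had 2 counts in control library 1 and none elsewhere. The plasma cell genes Xbp1, Ell2 and Prdm1 were abundant in every library, at 335 to 486, 225 to 344 and 70.9 to 165 CPM. The values of high-fiber library 2 lay inside these ranges, at 420, 255 and 81.2 CPM (8556, 5209 and 1655 counts).

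Of 15 plasma cell genes in the list used, 10 were tested and 0 passed edgeR's threshold in either direction. Unadjusted p was under 0.05 for 1 higher and 1 lower gene (4.7% and 4.1% of all genes). The list median log2 fold change was -0.027, beside -0.016 over all genes tested. Irf4, a transcription factor of plasma cells and of activated lymphocytes, was higher, at 27.1 and 22.2 CPM on the control and 89.8 and 58.2 CPM on the high-fiber diet (1.59 ± 0.35, edgeR adjusted p = 0.447, DESeq2 adjusted p = 0.00655). Slamf7, a surface receptor of plasma and other lymphoid cells, was lower, at 123, 111, 19 and 0 counts (-3.56 ± 1.15, edgeR adjusted p = 0.447). The most abundant members were Xbp1, the transcription factor of the secretory program (335 to 486 CPM), Ell2 (225 to 344 CPM) and Prdm1 (70.9 to 165 CPM). The summed list ran from 754 to 1008 CPM on the control and 896 to 1039 CPM on the high-fiber diet.

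B cell genes were mostly at or near 0. Of 18 in the list used, 12 stayed below 10 counts in each library, including Blk, Pax5, Bank1 and Vpreb3 at 0 in all 4, and 4 were tested. Ms4a1, which encodes CD20, had 2, 1, 1 and 0 counts. Cd79a, a signalling chain of the B cell receptor, had 17, 1, 34 and 22 counts. Its partner Cd79b had 724 and 578 counts on the control and 1138 and 1172 on the high-fiber diet (0.91 ± 0.35, unadjusted p = 0.0396, edgeR adjusted p = 0.533). Cd72, a receptor shared with other leukocytes, was the most abundant at 206 to 344 CPM. Blnk, the third most abundant, had 133 counts in control library 2 and none elsewhere. None of the 4 tested genes passed by edgeR or DESeq2, and the list median was 1.29.

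**Figure D4:**
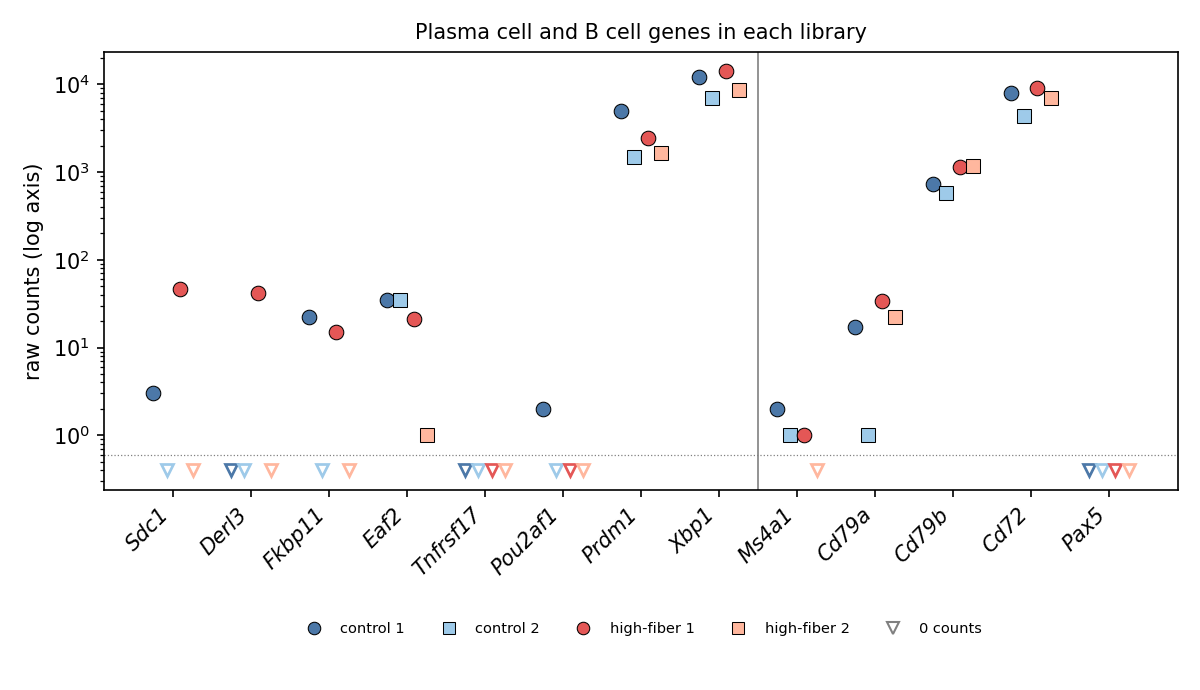
Raw counts of plasma cell genes (left of the line) and B cell genes (right) on a log axis, with 1 point per library and open triangles for 0 counts. Tnfrsf17 and Pax5 have 0 counts in all 4 libraries, and Sdc1 and Derl3 reach 47 and 42 counts in high-fiber library 1 but 0 in high-fiber library 2.

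Genes of early B cells and of recombination were mostly uncounted. Rag1, Rag2, Dntt, Vpreb1 and Igll1 had 0 counts in all 4 libraries. Il7r, Lef1, Cd93 and Tcf3 were tested and none passed edgeR's threshold or an unadjusted p of 0.05. Il7r, the IL-7 receptor that ILC2s carry, was at 851 to 1049 CPM, Lef1 at 10.9 to 26.5 CPM and Cd93 at 9.83 to 23.6 CPM.

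Antibody folding and secretion genes were abundant in every library. Of 20 tested, 0 passed in edgeR or DESeq2, and 18 had positive log2 fold changes (48.8% of all genes tested were positive) with a median of 0.32. An unadjusted p under 0.05 was reached by 4, all positive (4.7% of all genes). The 4 were Manf (0.74), Sdf2l1 (0.74), Sec11c (0.77) and Edem1 (0.56). Sec11c, a subunit of the signal peptidase, was at 689 and 738 CPM on the control and 939 and 1493 CPM on the high-fiber diet. Hspa5, the main chaperone of the endoplasmic reticulum, was at 7988, 7104, 6831 and 5584 CPM, lowest in the library with the most Igkc. Hsp90b1 was at 685 to 1125 CPM. The summed list ran from 12656 to 13403 CPM on the control and from 13021 to 13665 CPM on the high-fiber diet, and Hspa5 made up the largest part of it.

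Marker sums of other cell types were set beside the immunoglobulin values, and their part in these values was not tested. Macrophage and dendritic cell markers (13 of 14 with a count) summed to 229 and 263 CPM on the control and 265 and 296 CPM on the high-fiber diet, with Zbtb46, Lyz2 and Xcr1 the most abundant and Itgax at 0. T cell markers (11 of 14 with a count) summed to 941 and 1087, and 917 and 1013 CPM, led by Trbc1, Cd3g and Trbc2, with Cd8a, Cd8b1 and Cd5 at 0. Epithelial markers (6 of 14 with a count) summed to 38.2 and 31.6, and 32.2 and 42.4 CPM. Epcam, Lgals4 and Krt18 led them, and Krt8, Krt20, Cdh1, Vil1, Phgr1, Slc26a3, Car1 and Muc2 were at 0. No gene of these 3 lists or of the ILC2 list passed edgeR's adjusted threshold. In the T cell list Cd3g was higher (0.77 ± 0.23) and Themis lower (-2.83 ± 0.71) before adjustment, both at an edgeR adjusted p of 0.447, and DESeq2 called Themis (adjusted p = 0.00990). In the ILC2 list Kit (1.11 ± 0.32, edgeR adjusted p = 0.447) and Il5 (0.79 ± 0.28, edgeR adjusted p = 0.496) were higher before adjustment, and DESeq2 called Kit (adjusted p = 0.0415).

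A promoter window (250 bases before to 50 after the start) was found in the RefSeq table of GRCm38.p6 for 1 member, Jchain. It holds no copy of the octamer ATGCAAAT, a motif known from immunoglobulin promoters, on either strand. Of 32851 windows in the table, 1.74% hold it.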

How the data were processed

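ILC2 RNA was amplified with a low-input SMARTer kit, per the labels' protocols. The authors deposited raw read counts per gene for 4 libraries. The submitters' processing notes name CASAVA 1.8.2, STAR 2.3.0 and mm10. For the counting tool, its strand setting and reads shared between copies, the method is not given in the sources used here. Gene IDs were matched to RefSeq symbols (25275 matched, 1904 did not). Totals ran from 20253987 to 30406730 counts, so 3 counts, the limit that a count of 0 allows, equal 0.0993 to 0.147 CPM.

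Diets were compared with edgeR 4.0.16 (TMM, filterByExpr, quasi-likelihood, Benjamini-Hochberg adjustment at 0.05) in R 4.3.3. DESeq2 1.42.0 and limma 3.58.1 were alternatives, with other scalings, filters, the replicate block and each library left out. Single values were compared by an exact two-sided permutation over libraries. The edgeR script was tested on simulated data, and the DESeq2 fit was not. Coding sequences and exon lengths came from GENCODE M21.

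Members and gene lists were chosen with earlier results of these data known. Named genes were all constant region and partner genes, the most counted V genes of each library (up to 5 heavy, 5 kappa and 2 lambda), any gene called, and the 3 most abundant genes of each list. Further genes of the lists and J segments, and Ighg2b, were named after their values were seen. The lists held genes of plasma cells, B cells, early B cells, antibody folding, IgA transport, other constant and J genes, ILC2s, and epithelial, T and macrophage or dendritic cells. Some genes of these lists are not reported here.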

Additional observations from a re-analysis of the deposited data

How the results depend on the processing

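With 2 mice a diet, the exact test cannot go below p = 0.333, and leaving out a library leaves a lone mouse whose spread is assumed to be that of the other diet. Of the results that answer a comparison, 0 members passed edgeR under other scalings, filters, robust or legacy fitting, limma-voom, an adjusted threshold of 0.1 and members left out of scaling. DESeq2 called 3 members, 3 of them higher. Leaving out 1 library gave 0 to 1 members called and 0 to 1 called higher by edgeR, the 1 without high-fiber library 1. DESeq2 with a library left out, an alternative chosen after seeing the data, called 3 to 6 members, 2 to 6 higher and 0 to 2 lower: 6 without control library 1, 6 without control library 2, 3 without high-fiber library 1 and 4 without high-fiber library 2. The share of all genes called was not computed for the fits with a library left out. Their numbers of members called are therefore not read as a result about the members. The Igkc log2 fold change ran from 2.33 to 6.10, Igha from 1.58 to 6.31, Jchain from 2.13 to 5.52 and Igkv14-111 from 5.04 to 12.47 over edgeR fits without 1 library.

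Some directions turned. Ighm was at 0.00091 without control library 2 and 0.025 without high-fiber library 1 in edgeR, and at 0.025 and 0.031 in DESeq2 (edgeR range -0.40 to 0.025). Igkv4-59 was at -0.26 by limma-voom, -6.66 without high-fiber library 2 in edgeR and -5.96 in DESeq2 (edgeR range -6.66 to 7.39). The kappa share difference was -1.39 percentage points without control library 2 (range -1.39 to 14.9), and the heavy chain V ratio -1.05 with Igha alone. The cause was not tested. Deviations of same-numbered libraries from their diet means had a correlation of 0.041 over genes. With 2 libraries a diet, this value cannot show whether the libraries were paired. With the replicate block edgeR called 0 members, and Igkc was at 3.50 (adjusted p = 0.547).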

Other observations

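Genes for receptors and transport of antibodies were also counted. Of 8 listed, 7 had a count, 5 were tested and 0 passed edgeR or DESeq2. Without adjustment 2 reached p under 0.05, both higher with high fiber (4.7% of all genes). Fcer1g, the shared signalling chain of Fc receptors, had 554 and 336 counts with control and 842 and 1000 counts with high-fiber diet (log2 fold change 1.16 ± 0.42, edgeR adjusted p = 0.499). Fcgr3, a low-affinity IgG receptor, was at 1.32 and 3.19 against 13.7 and 5.30 CPM (2.24 ± 0.87, edgeR adjusted p = 0.533). Trim21, a cytosolic antibody receptor, was lower, at 54.1 and 31.5 against 28.3 and 30.8 CPM (-0.56 ± 0.38, edgeR adjusted p = 0.761). Its diets did not overlap downward, which held for 19.6% of all genes. Pigr, the epithelial transporter of IgA, had 0, 1, 0 and 2 counts. Macrophage and dendritic cell markers summed to 229 and 263, and 265 and 296 CPM, and their part in the Fc receptor values was not tested. Of 17 other constant and J genes in the table, 14 had a count, 1 was tested (Igkj5) and 0 passed.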
